A study of Mus musculus with 62 samples.

Results

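The stretches of chromatin described here are the 2555 wide H3K27ac sites at 24 weeks post induction (w.p.i.), that is, the sites of at least 2500 bp among 193657 H3K27ac sites that the study listed as differing between Daxx-KO and WT haematopoietic stem and progenitor cells (HSPCs). They were chosen by their width alone, and their direction was read from the same libraries that put them on the list, so width and direction are descriptions of these libraries and carry no test. Of the wide sites, 1500 were gained (a higher Daxx-KO mean) and 1055 were lost (a lower Daxx-KO mean). Wide sites made up 1.32% of the listed sites and 5.01% of the listed sequence.

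H3K27ac was mapped by CUT&Tag, in which an antibody tethers a transposase that cuts and tags the DNA around the mark, in Lin-/c-Kit+ cells taken from bone marrow by magnetic sorting. The WT group was C57BL/6 mice of genotype Daxx +/+ Cre +/- and the Daxx-KO group C57BL/6 mice of genotype Daxx F/F Cre +/-, so both groups carried 1 copy of Cre and the same induction preceded the samples, whereas the floxed allele (exons 2 to 7 of Daxx between loxP sites, in a line made on C57BL/6N and crossed to C57BL/6J Cre lines) was carried by the Daxx-KO group alone. The Cre line of these mice and their ages are not given in the labels, which state 24 w.p.i., and mice of both sexes were used in the study. Each genotype had 2 libraries from 2 mice, and the same 4 mice also gave the Pu.1, H3.3, H3K9me3 and H3K27me3 libraries at 24 w.p.i., whereas H3K27ac at 3 w.p.i. came from 4 other mice.

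Acetylation of lysine 27 on histone H3 marks active promoters and enhancers. Most acetylated sites span a few nucleosomes, and long unbroken stretches of the mark are known mainly from promoters rich in CpG and from clusters of enhancers at genes that define a cell type. Pu.1, encoded by Spi1, is an ETS-family transcription factor that directs myeloid and, at lower dose, B-cell development by binding a purine-rich word with a GGAA core. H3.3 is the histone H3 variant laid down outside replication, by Hira at active genes and by Daxx with Atrx at silent and repetitive DNA.

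The Daxx gene itself held a wide loss. A lost site of 3600 bp at chr17:33909801-33913400 (mm10) began within 1 kb of the Daxx start and covered exons 2, 3, 4 and 5 and part of exon 6 of transcript Daxx-201. It held 113 and 93.7 counts for Daxx-KO, 858 and 368 for WT, and both Daxx-KO values lay below both WT values (log2 ratio -2.57). The WT values differed by 2.33-fold. Because exons 2 to 7 are the floxed part, reads there report the DNA that is left as well as its acetylation, and this site serves only to check the labels.

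Values below are normalized counts, the reads of a library in a site divided by that library's constant in the file header, and levels of different sites are compared only per kb. The log2 ratio is that of the 2 Daxx-KO libraries' mean over the 2 WT libraries' mean. At the median wide site a library held 728 to 1386 reads, against 23 to 62 reads at the median narrower site, and the lowest wide site held 14 to 28 reads. With 2 libraries per genotype the smallest two-sided p of an exact permutation test is 0.333, so no site is tested, and libraries are called apart where both of one genotype lie above both of the other. In sorted bulk cells, fewer cells that carry the mark and less of the mark per cell cannot be told apart.

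Promoter sequences of 7 genes with wide sites are shown first, because they carry the motif counts given further on. Each is a RefSeq window (GRCm38.p6, the coordinates of mm10) of 300 bases, from 250 bases before to 50 bases after the transcription start, written 5′ to 3′ on the gene's strand. Capitals mark the word GAGGAAGT or its reverse complement ACTTCCTC, an ETS-type word of the kind that Pu.1 binds. The promoters of Elane (neutrophil elastase; chr10:79886062-79886361, plus strand), S100a8 (a subunit of calprotectin; chr3:90668821-90669120, plus strand) and Ly6c2 (a monocyte and granulocyte surface antigen; chr15:75111922-75112221, minus strand) overlapped gained wide sites and hold the word.

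Elane: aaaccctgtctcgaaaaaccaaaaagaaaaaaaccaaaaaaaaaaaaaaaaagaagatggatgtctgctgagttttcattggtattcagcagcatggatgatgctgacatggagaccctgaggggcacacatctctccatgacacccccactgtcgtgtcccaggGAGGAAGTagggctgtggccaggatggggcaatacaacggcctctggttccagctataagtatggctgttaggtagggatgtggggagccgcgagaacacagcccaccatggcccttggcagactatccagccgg
S100a8: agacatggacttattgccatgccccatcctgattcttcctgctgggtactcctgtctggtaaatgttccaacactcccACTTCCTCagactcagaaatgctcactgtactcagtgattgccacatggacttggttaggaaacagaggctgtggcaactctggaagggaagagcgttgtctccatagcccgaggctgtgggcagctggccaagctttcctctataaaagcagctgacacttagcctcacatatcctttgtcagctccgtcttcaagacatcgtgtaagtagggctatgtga
Ly6c2: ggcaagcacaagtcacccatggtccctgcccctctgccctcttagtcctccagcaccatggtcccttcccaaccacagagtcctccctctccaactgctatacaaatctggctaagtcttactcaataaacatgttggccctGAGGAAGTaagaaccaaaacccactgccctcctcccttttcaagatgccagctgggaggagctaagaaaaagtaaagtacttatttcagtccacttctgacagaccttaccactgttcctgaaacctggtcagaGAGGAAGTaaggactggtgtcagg

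The promoters of Pld4 (an endolysosomal nuclease of the phospholipase D family; chr12:112760405-112760704, plus strand) and Acer3 (an alkaline ceramidase; chr7:98321159-98321458, minus strand) overlapped lost wide sites and hold the word as well. They were chosen after their values were seen, as those with the widest lost sites among promoters with the word.

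Pld4: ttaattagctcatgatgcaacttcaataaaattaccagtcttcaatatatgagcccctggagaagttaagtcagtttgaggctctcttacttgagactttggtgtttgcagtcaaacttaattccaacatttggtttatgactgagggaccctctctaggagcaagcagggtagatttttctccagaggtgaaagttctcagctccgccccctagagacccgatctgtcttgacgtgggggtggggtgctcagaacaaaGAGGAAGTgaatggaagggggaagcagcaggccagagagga
Acer3: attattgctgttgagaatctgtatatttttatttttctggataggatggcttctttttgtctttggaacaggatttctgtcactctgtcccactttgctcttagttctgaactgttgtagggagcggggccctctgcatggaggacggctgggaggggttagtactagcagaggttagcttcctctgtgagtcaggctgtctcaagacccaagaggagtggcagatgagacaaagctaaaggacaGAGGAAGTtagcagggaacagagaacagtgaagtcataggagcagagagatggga

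The promoters of Il7r (the receptor chain for interleukin-7 in lymphoid precursors; chr15:9529827-9530126, minus strand) and Lck (the proximal kinase of the T-cell receptor; chr4:129573592-129573891, minus strand) overlapped lost wide sites and do not hold these exact letters. Both hold a close variant with the same GGAA core, CAGGAAGT in Lck and its reverse complement ACTTCCTG in Il7r. Such variants were not counted or marked, so these promoters are not shown to lack an ETS-type word.

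Il7r: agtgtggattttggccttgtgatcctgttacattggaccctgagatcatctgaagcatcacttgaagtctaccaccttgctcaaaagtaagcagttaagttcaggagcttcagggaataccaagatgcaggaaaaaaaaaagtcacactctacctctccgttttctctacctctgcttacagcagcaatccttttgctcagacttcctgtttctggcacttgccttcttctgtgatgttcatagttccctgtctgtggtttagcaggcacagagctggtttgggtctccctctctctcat
Lck: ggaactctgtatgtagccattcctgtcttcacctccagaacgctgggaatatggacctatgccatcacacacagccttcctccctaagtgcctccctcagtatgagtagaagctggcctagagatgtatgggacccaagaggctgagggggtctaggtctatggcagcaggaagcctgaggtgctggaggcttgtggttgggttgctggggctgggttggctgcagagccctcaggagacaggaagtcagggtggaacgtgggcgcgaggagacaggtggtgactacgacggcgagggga

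At the Elane site H3K27ac was 1817 and 1894 counts for Daxx-KO, 689 and 793 for WT (log2 ratio 1.32). At S100a8 it was 4574 and 4628 (Daxx-KO) against 2424 and 2599 (WT) (log2 ratio 0.87), and at Ly6c2 1375 and 1537 (Daxx-KO) against 781 and 904 (WT) (log2 ratio 0.79). The Daxx-KO libraries were the higher ones at all 3 sites without overlap. Pld4 had 515 and 424 counts for Daxx-KO, 1298 and 1418 for WT (log2 ratio -1.53), and Acer3 had 562 and 736 (Daxx-KO) against 1756 and 1517 (WT) (log2 ratio -1.33). Both sites were lower in both Daxx-KO libraries. The Il7r site held few reads in Daxx-KO, with 86.9 and 67.3 counts for Daxx-KO, 289 and 326 for WT (log2 ratio -2.00), and Lck had 115 and 109.8 (Daxx-KO) against 495 and 627 (WT) (log2 ratio -2.32).

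Gained and lost wide sites differed in level as well as in direction. Gained sites were already the more acetylated ones in WT: the median normalized counts per kb were 368 and 381 for WT, 734 and 692 for Daxx-KO. Lost wide sites had medians of 188 and 198 per kb for WT, 64.9 and 69.0 for Daxx-KO, and the median WT level of gained wide sites was 1.98-fold that of lost ones. The narrower gained sites had a median of only 24.4 per kb in WT and 72.1 in Daxx-KO. The wide gains had a median log2 ratio of 0.92 (quartiles 0.75 and 1.12, range 0.24 to 4.79, n = 1500), against 1.47 at narrower gained sites. Wide losses had a median log2 ratio of -1.45 (quartiles -1.80 and -1.12, range -3.72 to -0.31, n = 1055), against -1.66 at narrower lost sites.

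The libraries of the genotypes were apart at 1499 of the 1500 gained and at all 1055 lost wide sites, where 97.3% of all listed sites were apart, a share that the listing itself favours. The exception was a site of 2600 bp near Alpk3. A 2-fold ratio (log2 ratio of at least 1 in size) was reached by 582 gained and 870 lost wide sites. Within the wide sites 58.7% were gained (95% Wilson interval 56.8 to 60.6, which like the other intervals here covers counting error only), against 42.5% of all listed sites. Joining listed sites that lay within 1 kb of each other gave 5243 gained and 6973 lost stretches of at least 2500 bp, so the excess of gains held for single listed sites and not for joined ones. Scaling each library by its mean reads per window instead of the header constant raised the median log2 ratio to 1.48 at gained and -0.88 at lost wide sites and turned 14 lost wide sites into gained ones. The split of sites with a 2-fold ratio then changed to 1485 gained and 424 lost.

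The share of gains was lowest at middle widths and higher among the widest sites. It was 43.8% among listed sites of 550 to under 800 bp, 40.6% at 1000 to under 1500 bp, 50.6% at 2000 to under 2500 bp, 53.0% at 2500 to under 3000 bp, 60.5% at 3000 to under 4000 bp, 67.7% at 4000 to under 5000 bp and 69.7% from 5000 bp (95% interval 63.3 to 75.4, n = 218). At distal sites, those without a transcription start within 1 kb, it fell from 43.3% at 550 to under 800 bp to 35.1% at 1500 to under 2000 bp and then rose to 68.8% from 5000 bp, and at promoter sites it went from 47.3% at 550 to under 800 bp to 65.4% at 1500 to under 2000 bp and 70.8% from 5000 bp, with its highest value, 80.4%, at 4000 to under 5000 bp. At the limit itself, 78 of the 165 sites of exactly 2500 bp and 72 of the 158 sites of 2450 bp were gained. Just inside it, a site at the promoter of Ptma (prothymosin alpha) had 5391 and 5539 (Daxx-KO) against 3769 and 2959 (WT), and a site between genes near Tram1 had 51.0 and 52.7 (Daxx-KO) against 290.4 and 237 (WT). Just outside it, the sites at Plekhb2 and Cyp27a1 had 566 and 404 (Daxx-KO) against 754 and 839 (WT) and 71.2 and 173 (Daxx-KO) against 399 and 532 (WT).

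**Figure D1:**
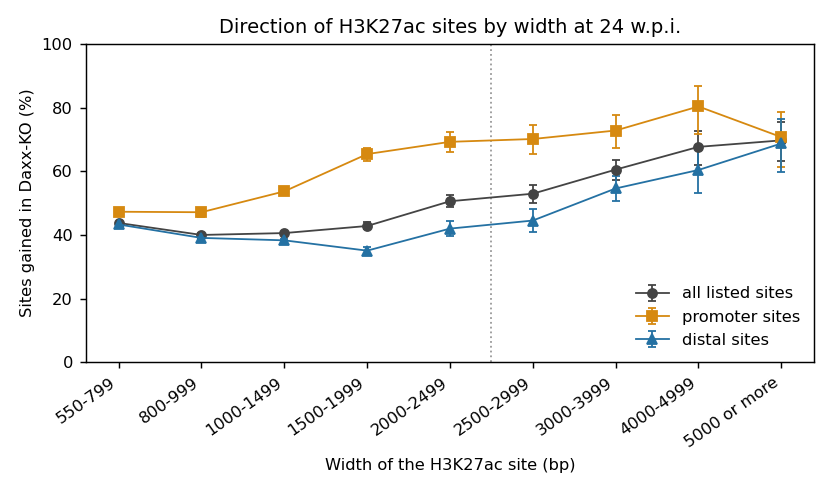
Percentage of listed H3K27ac sites gained in Daxx-KO (vertical axis) by site width in bp (horizontal axis), for all sites, promoter sites (a transcription start within 1 kb) and distal sites; points are shares, bars 95% Wilson intervals, and the dotted line marks 2500 bp. Distal sites drop from 43.3% in the narrowest class to 35.1% at 1500 to under 2000 bp and climb to 68.8% from 5000 bp, and promoter sites stay between 65.4% and 80.4% from 1500 bp upwards.

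Wide gains sat at promoters more often than wide losses did. A transcription start lay within 1 kb of 638 of the 1500 gained sites (42.5%, 95% interval 40.1 to 45.1) and of 244 of the 1055 lost sites (23.1%, 20.7 to 25.8), against 16.1% and 11.3% of the narrower gained and lost sites, which have less length to meet a start. Seen the other way, 72.3% of the wide promoter sites and 51.5% of the wide distal sites were gained. The gained promoter sites touched 575 protein-coding genes and the lost ones 184. Distal gained sites lay a median of 19149 bp from the nearest protein-coding start and distal lost sites 23901 bp, and 35.2% of gained and 49.5% of lost wide sites were distal but inside a gene. Promoter gains had the highest level, with a median of 502 per kb in WT and 899 in Daxx-KO, whereas distal gains had 299 and 576. Distal losses had the lowest, with 178 per kb in WT and 60.2 in Daxx-KO.

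Base composition moved with the direction. The median GC content was 50.7% at gained and 47.0% at lost wide sites, with 14.9 and 11.2 CpG per kb. Among wide sites below 40% GC 5.88% were gained (2 of 34), at 45 to 50% GC 51.5%, at 55 to 60% GC 90.6%, and from 65% GC all 15. At narrower sites the same shares were 32.1%, 40.5%, 60.5% and 82.2%, so the slope was present there with a smaller range. The excess of gains among wide over narrower sites was 16.4 percentage points, and 14.2 points when sites were compared within bins of 5 points of GC. The part of GC content in the result was not tested beyond these values.

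**Figure D2:**
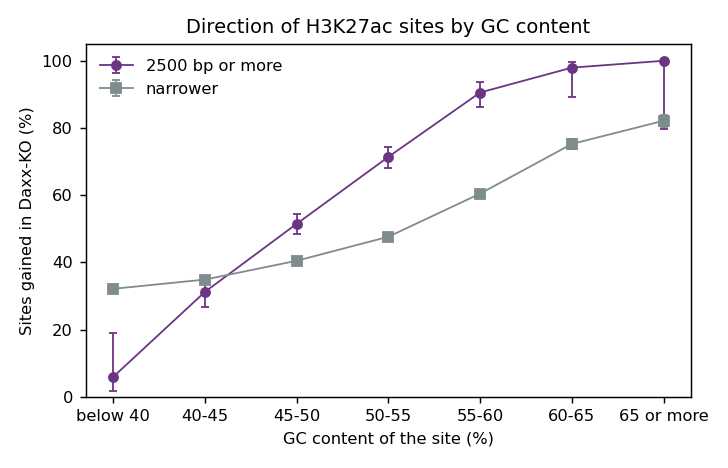
Percentage of listed H3K27ac sites gained in Daxx-KO (vertical axis) by GC content of the site in percent (horizontal axis), for sites of 2500 bp or more and for narrower sites; points are shares and bars 95% Wilson intervals. The wide sites run from 5.88% gained below 40% GC to 100% from 65% GC, the narrower ones from 32.1% to 82.2%.

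Neighbouring wide sites mostly shared a direction. Of 764 pairs of neighbouring wide sites within 50 kb, 674 (88.2%, 95% interval 85.7 to 90.3) had the same direction. Among narrower sites the same count gave 55.2% of 183080 neighbouring pairs within 50 kb, and among all listed sites 55.7% of 185642 pairs. Neighbours can be parts of 1 acetylated stretch that the caller split, so the pairs are a description. The gained share ran from 46.3% of the 136 wide sites of chromosome 1 to 78.8% of the 99 of chromosome 19.

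Padi4 and Erg, genes of the granulocyte and stem cell programmes, were among the loci of the widest gains. The widest, of 12450 bp at chr14:25846651-25859100, lay inside Anxa11, which encodes a calcium-dependent phospholipid-binding protein, and had 14967.5 and 15254.5 counts for Daxx-KO, 6626 and 7148 for WT (2.19-fold). Next came a site of 12100 bp over the promoter of Padi4, the peptidylarginine deiminase that citrullinates histones in neutrophils, with 8537 and 7499.9 counts for Daxx-KO, 3404 and 2971 for WT (log2 ratio 1.33). The third, of 11250 bp, covered a promoter of Erg, an ETS factor needed to maintain stem cells, with 12463 and 13035.5 counts for Daxx-KO, 6203 and 7165 for WT (log2 ratio 0.93). All 3 were higher in both Daxx-KO libraries than in either WT library. A site of 10900 bp between genes, nearest to Atp1b3 (a subunit of the sodium pump; its start 32558 bp away), had 15063 and 12769 (Daxx-KO) against 4423 and 4619.8 (WT) (log2 ratio 1.62), and one of 10750 bp nearest to the gene model Gm33543, 66271 bp from its start, had 9124 and 7434 (Daxx-KO) against 2987 and 3561 (WT) (log2 ratio 1.34).

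The 2 widest losses were of another kind. They covered chr9:2999501-3020800 (21300 bp) and chr9:3020901-3038800 (17900 bp) at the start of the assembled part of chromosome 9, where 94.4% and 94.7% of the bases were repeat-masked and the annotation holds only predicted gene models. The counts, 25485.5 and 44951 (Daxx-KO) against 82288 and 83056 (WT) and 16088 and 29394 (Daxx-KO) against 52607 and 54204 (WT), were uncertain because reads from repeat copies elsewhere can be placed there and the Daxx-KO replicates differed by 1.76-fold and 1.83-fold. Across all wide sites only 5 gained and 8 lost had over 80% of their bases repeat-masked, and the median share was 17.4% at gained and 18.6% at lost sites. The widest loss outside repeats, of 11100 bp, lay at the promoter of Tmem51, a transmembrane protein gene, with 601 and 768 counts for Daxx-KO, 4086 and 2953 for WT (log2 ratio -2.36). A site of 11000 bp lay 41716 bp from the start of Cd69, an early activation antigen of lymphocytes, and had 2955 and 3835 counts for Daxx-KO, 7459.6 and 8059 for WT (log2 ratio -1.19). At 9150 bp, a site between genes, 124382 bp from its nearest start, that of Map3k1 (a kinase of the JNK pathway), had 1048 and 1303 (Daxx-KO) against 2752 and 3018 (WT) (log2 ratio -1.30). These losses outside repeats were seen in both Daxx-KO libraries.

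The largest ratios were found at sites with little acetylation in one genotype. The largest gain lay between genes, 10880 bp from the start of Cyp2a5 (a cytochrome P450), with 752 and 1187 counts for Daxx-KO, 29.0 and 41.1 for WT (log2 ratio 4.79). A site 36292 bp from the start of Vmn2r3, a vomeronasal receptor gene, had 835 and 341 (Daxx-KO) against 51.4 and 22.1 (WT) (log2 ratio 4.00), and one 10092 bp from that of Dnah7c, a dynein heavy chain gene, had 590.5 and 471 (Daxx-KO) against 33.5 and 33.2 (WT) (log2 ratio 3.99). Inside the gene D10Wsu102e the counts were 888 and 691 (Daxx-KO) against 45.8 and 74.4 (WT) (log2 ratio 3.72). These 4 sites overlapped no Pu.1 or H3.3 site of either direction. Sites at Stfa2l1 and Gm5483, members of the stefin cluster of protease inhibitors, had log2 ratios of 3.11 and 2.24. In the cluster of Raet1 and H60 genes, which encode ligands of the NKG2D receptor, 3 wide sites had log2 ratios of 2.14, 2.21 and 3.17. Genes of these clusters have near-identical copies, and reads could be placed in either copy. Read placement was not checked at the 4 sites named first either, and 46.4% of the Vmn2r3 site was repeat-masked. Fbln1, a matrix protein gene, held a gained site of 7200 bp with 2505 and 2816 counts for Daxx-KO, 319 and 423 for WT (log2 ratio 2.84).

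The largest loss lay between genes, 12240 bp from the start of Unc93a, with 57.0 and 67.3 counts for Daxx-KO, 1001 and 636 for WT (log2 ratio -3.72). Sites inside Trim44 and Abhd12 had log2 ratios of -3.66 and -3.64. At the promoter of Ifi207, an interferon-inducible gene of the HIN-200 family, the site had 49.5 and 126 counts for Daxx-KO, 819.9 and 1266 for WT (log2 ratio -3.57), and at that of Lilra5, an activating receptor of myeloid cells, 37.5 and 29.3 (Daxx-KO) against 442 and 347 (WT) (log2 ratio -3.56). A distal site 79880 bp from the start of Zeb2, a zinc-finger repressor with roles in stem cell and myeloid differentiation, had 68.2 and 61.5 counts for Daxx-KO, 734 and 585 for WT (log2 ratio -3.35). At each of these sites both Daxx-KO libraries lay far below both WT libraries. Losses nearest to Clip1, Gclc, Tgif1 and Echdc3, at 10432, 79990, 17815 and 44767 bp from their starts, had log2 ratios of -3.50, -3.14, -2.72 and -2.60.

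Of the 9 gene lists, that of neutrophil and myeloid genes had the highest share of genes with a wide gain. Of 20780 autosomal protein-coding genes, 989 (4.76%) had a gained wide site at the promoter or in the gene body and 630 (3.03%) a lost one. Of 32 neutrophil and myeloid genes, 18 (56.3%, 95% interval 39.3 to 71.8) had a gained and 4 had a lost wide site, with Nfam1 in both groups. The members with gains were the transcription factor genes Spi1, Gfi1, Irf8, Cebpb, Cebpd and Cebpe, the granule protein genes Elane, Mpo, Ctsg, Ltf, Camp and Ngp, the calprotectin genes S100a8 and S100a9, and Ly6c2, Cd33, Csf2ra and Nfam1. The list was written with earlier results of these data known, so its share is not independent evidence of its direction.

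Ngp, the gene of neutrophilic granule protein, had the widest of these sites, 8100 bp over its promoter, with 6981 and 6737 counts for Daxx-KO, 2881 and 3440.3 for WT (log2 ratio 1.12). A site of 6700 bp at S100a9, the partner subunit of S100a8, had 3289 and 3327 (Daxx-KO) against 1929 and 2558 (WT) (log2 ratio 0.56). Gfi1, a zinc-finger repressor that directs granulocyte fate, had 3421 and 3205 (Daxx-KO) against 1571 and 1736 (WT) over 4800 bp (log2 ratio 1.00). The Daxx-KO libraries were above the WT libraries at each of these genes. Spi1 had 2 gained wide sites upstream of its annotated GENCODE basic start, centred 13346 bp and 8296 bp before it. The farther one, chr2:91080301-91085200, was among the most acetylated, with 15111 and 13801 counts for Daxx-KO, 8985 and 8601 for WT (log2 ratio 0.72), and the nearer one, chr2:91085851-91089750, had 5651 and 5719 (Daxx-KO) against 3158 and 3462 (WT) (log2 ratio 0.78). The farther site overlapped 1 lost and 0 gained Pu.1 sites, and the nearer one 0 of either direction.

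The 4 lost sites of the myeloid list were at Klf4, Csf1r, Il6ra and Nfam1. Klf4, a factor of monocyte differentiation, had 911 and 1208 counts for Daxx-KO, 4463 and 2955 for WT (log2 ratio -1.81). Csf1r, the receptor for macrophage colony-stimulating factor, had 1245 and 1338 (Daxx-KO) against 1796 and 1903 (WT) (log2 ratio -0.52), the smallest of the 4 losses. Sites in Il6ra, the interleukin-6 receptor chain, and Nfam1, an ITAM-bearing receptor, had log2 ratios of -2.07 and -1.30. Libraries did not overlap at any of the 4.

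Of 23 B-lineage genes, 0 had a gained wide site and 6 had a lost one (26.1%, 95% interval 12.5 to 46.5), against 4.76% and 3.03% of all genes. A count of 0 of 23 allows a share of up to 14.3% by the same interval, which includes the 4.76% of all genes. This list too was written with earlier results of these data known. Ikzf3, the zinc-finger factor Aiolos, had 519 and 579.6 counts for Daxx-KO, 1222 and 999.9 for WT (log2 ratio -1.02). Bach2, a transcriptional repressor of B cells, had 590.5 and 562 (Daxx-KO) against 1282 and 1513 (WT) (log2 ratio -1.28), and Irf4, a factor of B-cell maturation, 115 and 109.8 (Daxx-KO) against 585 and 298 (WT) (log2 ratio -1.98). The 2 WT libraries differed by 1.96-fold at Irf4, and both still lay above both Daxx-KO libraries. Its Daxx-KO values were the same as those of Lck, as the file lists it; both values of a genotype are shared within 12 pairs of wide sites in Daxx-KO and within 2 pairs in WT. Ikzf1, the zinc-finger factor Ikaros, had 301 and 303 (Daxx-KO) against 582 and 517 (WT) at the wider of 2 lost sites (log2 ratio -0.86), and Il7r and Cd74 were the other members. The sites of Irf4, Il7r and Cd74 lay at the promoter of the gene, whereas those of Ikzf3, Bach2 and Ikzf1 lay in the gene body away from it. With a minimum width of 3000 bp, 3 of the 23 genes had a lost site. B cells and their committed precursors carry the Lin markers that the sort removes, and the share of lymphoid-primed cells among the sorted cells was not measured.

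Stem and progenitor genes carried gains at 10 of 30 genes (33.3%, 95% interval 19.2 to 51.2) and losses at 3 (10%), against 4.76% and 3.03% of all genes. Beside Erg, with 4 gained sites, the genes with gains were Meis1, Hhex, Myb, Hoxa9, Runx1, Fli1, Zfp36l2, Lmo2 and Etv6. A longer gene has more room for a wide site, and the shares of the lists were not adjusted for gene length. Meis1, a homeobox partner of Hox proteins in stem cells, had 1356 and 1134 counts for Daxx-KO, 573 and 421 for WT (log2 ratio 1.33). Hhex, a homeobox gene of early lymphoid and stem cells, had 3179 and 2506 (Daxx-KO) against 1649 and 1375 (WT) (log2 ratio 0.91), and Myb, a factor of progenitor expansion, 2076 and 2179 (Daxx-KO) against 1157 and 959.6 (WT) (log2 ratio 1.01). Fli1, Lmo2 and Etv6 held sites of both directions in different places of the same gene, with log2 ratios at the lost sites of -0.998, -1.19 and -0.96. Within each of these 3 genes some wide sites were thus higher and others lower in Daxx-KO.

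Wide sites of both directions also lay at genes of other lineages. Of 23 erythroid and megakaryocyte genes 1 had a gained (4.35%) and 3 had a lost site (13.0%, 95% interval 4.54 to 32.1), against 4.76% and 3.03% of all genes. Slc4a1, the band 3 anion exchanger of red cells, had 168 and 167 counts for Daxx-KO, 707 and 797 for WT (log2 ratio -2.17), Sptb, the beta-spectrin gene, had a log2 ratio of -1.52, and Cbfa2t3, a corepressor of the Tal1 complex, one of -1.19 over 8400 bp. Nfe2, a factor of platelet formation, had 4673 and 4660.4 (Daxx-KO) against 2614 and 2942 (WT) (log2 ratio 0.75). The libraries were apart at each of these 4 genes. Of 20 T-lineage and NK-lineage genes 3 (15%) had gained sites, Notch1 (log2 ratio 0.96), Satb1 (1.29) and Ets1 (0.92), and 2 (10%) had lost sites, Lck and a second place in Ets1 (-1.73). Among 10 mast-cell and basophil genes 2 (20%), Hdc and Alox5, had gained sites (log2 ratios 0.93 and 0.68) and 0 had lost ones, which allows a share of up to 27.8%.

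Among 26 interferon and nucleic-acid sensing genes Irf2 had a gained site (log2 ratio 0.75) and Irf5 a lost one (-1.37), 3.85% each and so near the shares of all genes. Of 20 AP-1 and early-response genes 4 (20%) had gains and 2 (10%) had losses, against 4.76% and 3.03% of all genes. Gains were at Fosl2, Ier2, Zfp36 and Dusp1 with log2 ratios of 0.68, 0.70, 0.63 and 0.59, and losses at Atf3 (-0.9997) and Nr4a1 (-0.76). The Dusp1 site was not at its promoter and lay 25864 bp from the nearest start, that of Ergic1. Zfp36, which encodes an mRNA-destabilizing protein, was among the most acetylated, with 18581 and 17245 counts for Daxx-KO, 12702 and 10426 for WT. At Nr4a1, a nuclear receptor gene, the Daxx-KO replicates differed by 1.89-fold, with 3149 and 1669 (Daxx-KO) against 4211 and 3938 (WT). Of 17 genes for H3.3 deposition and silencing 2 (11.8%) had a gain and 1 (5.88%) had a loss, against the same shares of all genes. Trim28, the corepressor of KRAB zinc-finger proteins, had 2512 and 2116 (Daxx-KO) against 1327 and 971 (WT) (log2 ratio 1.01). Cbx5, the gene of heterochromatin protein HP1 alpha, shares its promoter site with Hnrnpa1 and had 2449 and 2794 (Daxx-KO) against 1438 and 1439.7 (WT) (log2 ratio 0.87). Daxx itself was the member with a loss.

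**Figure D3:**
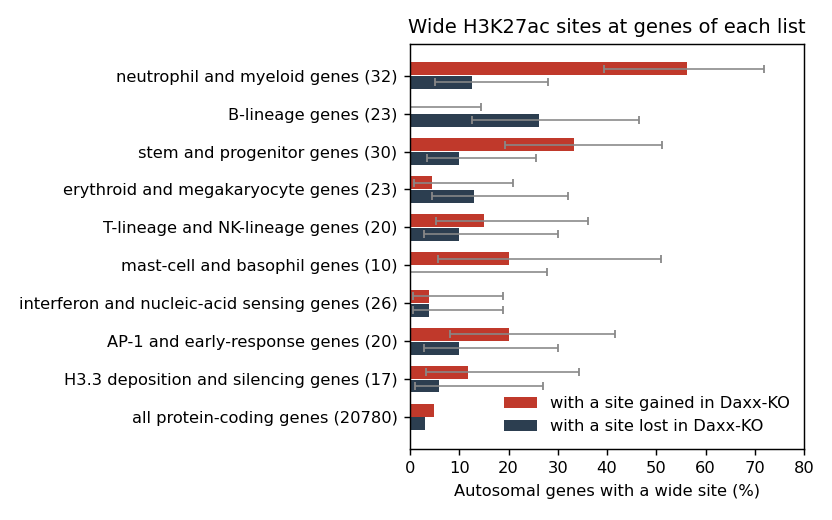
Percentage of the autosomal genes of each list (number in brackets) with a wide H3K27ac site at the promoter or in the gene body (horizontal axis), gained or lost in Daxx-KO; bars are shares, thin lines 95% Wilson intervals, and the lowest pair of bars gives all 20780 protein-coding genes. Neutrophil and myeloid genes reach 56.3% with a gain and B-lineage genes 0%, against 4.76% of all genes. The interval of the B-lineage 0% reaches 14.3% and so includes the share of all genes.

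**Figure D4:**
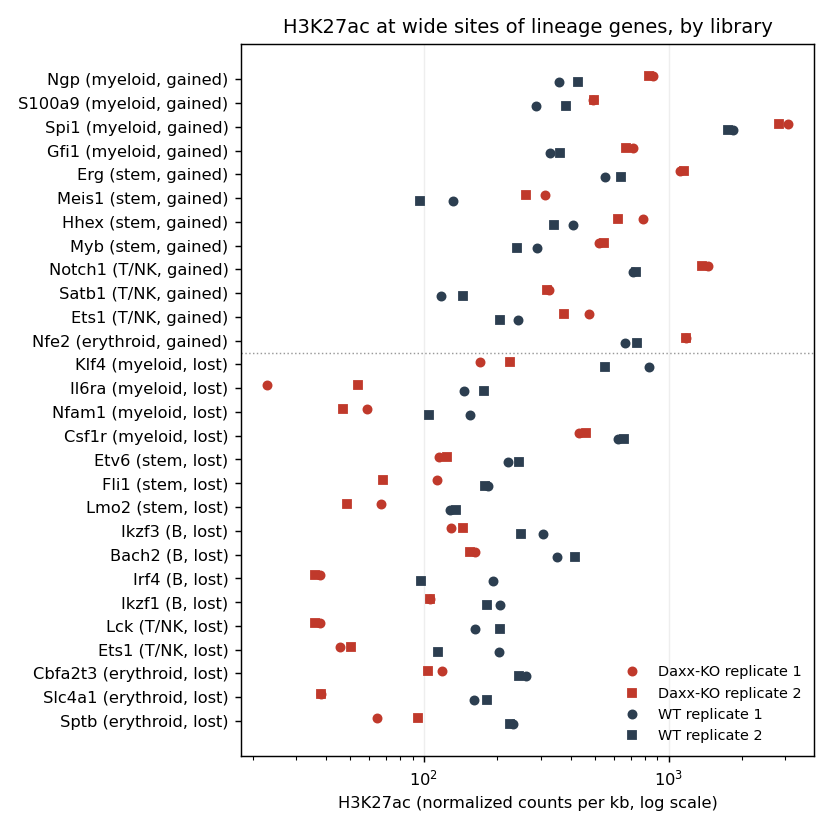
H3K27ac in normalized counts per kb on a log scale (horizontal axis) at the widest gained and lost wide site of up to 4 genes per list and direction (vertical axis); red marks are Daxx-KO and dark marks WT libraries, circles replicate 1 and squares replicate 2, and the dotted line parts gained from lost sites. Marks of the genotypes do not overlap at any site shown, and the spread within a genotype is widest at lost sites with low Daxx-KO values such as Il6ra.

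Several genes held a series of wide sites. Litaf, which encodes a regulator of endosomal trafficking and inflammatory signalling, held 7 gained sites of 28400 bp in all and 0 lost ones, with summed counts of 21262 and 20544 for Daxx-KO, 10942.5 and 11315 for WT. Ksr1, a scaffold of the Ras-MAPK cascade, held 7 gained sites (log2 ratios 0.58 to 1.70), Ptpre, a receptor-type tyrosine phosphatase gene, 6 (0.53 to 0.96) and Gcnt2, a glycosyltransferase gene, 5 (1.07 to 2.09). Cblb, a ubiquitin ligase that restrains lymphocyte activation, held 5 lost sites with summed counts of 674 and 589.9 for Daxx-KO, 1894.5 and 2260.1 for WT. Rftn1, Ubac2 and Cd86 held 4 lost sites each, and Cd86, a costimulatory ligand of antigen-presenting cells, had log2 ratios from -2.41 to -1.52. The gene model Gm20388 held 16 gained and 5 lost sites, but it spans 4435 kb and other genes lie inside it.

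Pu.1 and H3.3 sites met wide sites of both directions. A gained Pu.1 site overlapped 33.3% of gained wide sites (95% interval 31.0 to 35.8) and 28.7% of lost ones (26.1 to 31.5). A lost Pu.1 site overlapped 39.4% of gained (37.0 to 41.9) and 34.7% of lost wide sites (31.9 to 37.6). Among wide sites with Pu.1 sites of a single direction, Pu.1 was gained at 43.8% of 737 gained and at 43.0% of 449 lost wide sites, against 48.2% of all 253825 listed Pu.1 sites. H3.3 gave shares of 35.3% with a gain and 30.7% with a loss at gained wide sites and of 33.4% and 26.5% at lost ones, and among sites with a single H3.3 direction 55.0% of 674 and 58.0% of 452 were gains, against 52.6% of all 255404 listed H3.3 sites. Listed sites of both proteins in the direction of H3K27ac lay at 217 gained and 116 lost wide sites, and sites of both against it at 221 and 120, where a wide site with sites of both directions can count on both sides. Neither protein had a listed site at 317 gained (21.1%) and 275 lost wide sites (26.1%).

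Width raises these shares by itself. Per site, wide sites met a Pu.1 site 1.96 times and an H3.3 site 1.92 times as often as narrower sites. Per kb of length the ratios were 0.653 and 0.616. An overlap of 1 bp counts, so a short site meets more sites per kb even where they are evenly spread. The ratios per kb therefore do not show Pu.1 or H3.3 sites to be sparser in wide sites. Gained Pu.1 sites numbered 11.1 per 100 kb of gained and 10.2 per 100 kb of lost wide sites, against 16.3 per 100 kb of both kinds of narrower site, with the same limit. The tables list differing sites only, so Pu.1 and H3.3 that did not change are not seen in them.

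Values at single loci are given for sites picked by width and by the direction of both proteins, so their direction is a description. In the widest gain, at Anxa11, a Pu.1 site of 600 bp had 50.4 and 46.0 in Daxx-KO against 2.88 and 21.1 in WT, and an H3.3 site had 226 and 92.8 against 47.97 and 50.8. In the Padi4 site Pu.1 over 700 bp was 55.9 and 71.0 for Daxx-KO, while both WT libraries were listed at 0, and H3.3 had 76.2 and 39.6 against 22.1 and 15.0. At Erg, Pu.1 was 61.4 and 167 against 14.4 and 45.3. Pu.1 and H3.3 were thus higher over short parts of these long sites, and Anxa11 also held 4 lost Pu.1 sites and 1 lost H3.3 site and Padi4 1 lost H3.3 site. Lost Pu.1 and H3.3 sites lay in the lost wide sites nearest to Tmem51, Metrnl (39514 bp from its start) and Tril, but Tmem51 also held 2 gained Pu.1 and 3 gained H3.3 sites and Metrnl 1 and 2. In the Tril site, which held lost ones alone and lay 110680 bp from the start of this gene for a modulator of Toll-like receptor signalling, H3K27ac was 303 and 234 (Daxx-KO) against 1204 and 1547 (WT), Pu.1 was 4.09 and 0 against 83.5 and 138, and H3.3 was 14.4 and 0 against 47.97 and 75.2.

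Elsewhere Pu.1 went the other way. In a gained site of 8400 bp in Ankrd33b, an ankyrin-repeat gene, H3K27ac was 8448 and 7321 counts for Daxx-KO, 3092 and 3269 for WT, whereas Pu.1 was 8.86 and 21.9 in Daxx-KO against 48.9 and 65.3 in WT and H3.3 was 15.5 and 6.79 against 137 and 67.7. At a site 12993 bp from the start of Osgin1, an oxidative-stress response gene, H3K27ac was 11811 and 9675 (Daxx-KO) against 5258 and 4761 (WT) and the strongest of 3 lost Pu.1 sites had 10.9 and 41.8 against 66.2 and 78.9, with 6.62 and 43.0 against 84.9 and 81.8 at an H3.3 site. Higher H3K27ac thus stood beside lower Pu.1 and lower H3.3 in both sites. The repeat-rich sites at the start of chromosome 9 were the widest losses with a Pu.1 gain, with 761 and 937 in Daxx-KO against 559.9 and 605 in WT at 1 of the 2 Pu.1 sites in the wider one.

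**Figure D5:**
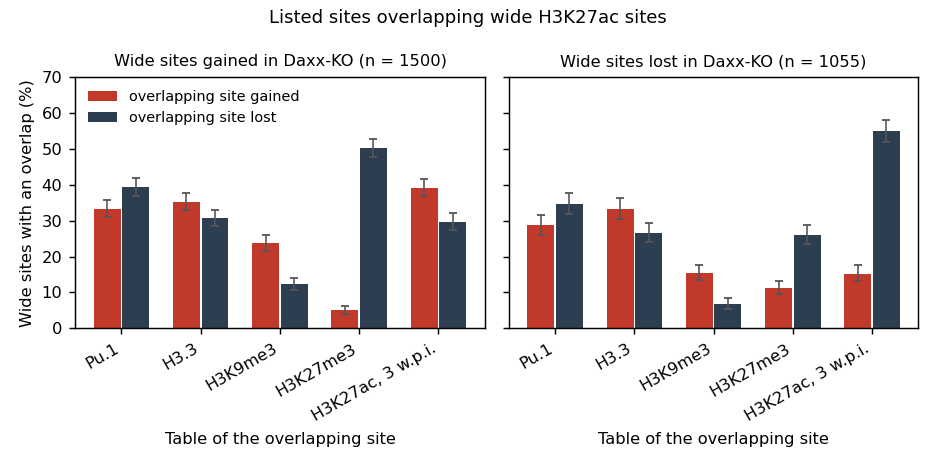
Percentage of the 1500 gained (left) and 1055 lost (right) wide H3K27ac sites that overlap a listed site of each other table by at least 1 bp (vertical axis), by the direction of the overlapping site; bars are shares with 95% Wilson intervals. H3K27me3 losses lie at 50.3% of gained wide sites and H3K27ac losses at 3 w.p.i. at 55.1% of lost wide sites, while the Pu.1 and H3.3 bars look alike in both panels, between 26.5% and 39.4%.

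H3K27me3, the Polycomb mark that shares its lysine with H3K27ac, was listed as lost at more gained than lost wide sites. A lost H3K27me3 site overlapped 754 of the 1500 gained wide sites (50.3%, 95% interval 47.7 to 52.8), and 67.9% of the gained promoter sites against 37.2% of the gained distal ones. At lost wide sites the share was 26.0% (23.4 to 28.7). Per length, lost H3K27me3 sites numbered 19.1 per 100 kb of gained and 9.93 per 100 kb of lost wide sites. At narrower sites the numbers were 21.04 and 14.65 per 100 kb. Because an overlap of 1 bp counts, short sites score more per length, so wide and narrower densities cannot be compared directly. Gained H3K27me3 sites lay at 5.07% of gained and 11.3% of lost wide sites. Where only 1 direction of H3K27me3 was listed, it was a gain at 6.31% of 776 gained and at 27.4% of 343 lost wide sites, and both shares lay below the 41.2% gained among all 134001 listed H3K27me3 sites. H3K9me3, the mark of constitutive heterochromatin, was listed as gained at 23.7% of gained and 15.5% of lost wide sites and as lost at 12.4% and 6.82%, where 48.1% of all 150482 listed H3K9me3 sites were gains. Per 100 kb, gained H3K9me3 sites numbered 7.58 at gained and 5.35 at lost wide sites, against 11.2 and 9.44 at narrower ones, with the same limit. These marks came from the same mice, and a shared shift of a library between antibodies was not tested.

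The ETS-type word GAGGAAGT was counted on both strands of every site. It lay in 29.5% of gained wide sites (95% interval 27.3 to 31.9) and in 31.3% of lost ones (28.6 to 34.1), and in 17.1% of the 798311 windows of 3000 bp that tile the autosomes. Per 100 kb there were 10.1 words in gained and 11.7 in lost wide sites, and 8.17 and 8.67 in narrower ones. At sites of 2500 to under 3500 bp the shares were 26.96% and 28.3%, so over whole sites gained and lost wide sites differed by less than their intervals. In the RefSeq promoter windows the word was found in 3.20% of all 32851, in 28 of the 664 that met gained wide sites (4.22%, 2.93 to 6.03) and in 16 of the 156 in lost ones (10.3%, 6.41 to 16.0). The promoter share was thus higher in lost than in gained wide sites, with intervals that did not meet. This difference was not tested. In the windows printed above, the word starts 85 bases before the start of Elane, 172 before that of S100a8 and 5 before that of Acer3, and 9 bases after that of Pld4. The Ly6c2 window holds 2 words, the first 108 bases before the start, and only 1 of them lies in the gained wide site. A match of letters is a description of the sequence and not a site of binding. Of the 206 genes of the lists 164 matched a RefSeq window by symbol.

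At 3 w.p.i., in other mice, part of the same sequence already differed. A listed 3 w.p.i. site of the same direction overlapped 588 of the 1500 gained (39.2%, 95% interval 36.8 to 41.7) and 581 of the 1055 lost wide sites (55.1%, 52.1 to 58.0). The opposite direction was found at 29.7% of gained (27.4 to 32.0) and 15.3% of lost wide sites (13.2 to 17.6). Where a single direction was listed at 3 w.p.i., it was a gain at 58.3% of 865 gained wide sites and at 17.3% of 642 lost ones, against 41.5% gained among all 103914 sites listed at 3 w.p.i., a table in which losses were the more frequent direction. Among gained wide sites the distal ones had more 3 w.p.i. gains than losses (43.3% and 22.4%), whereas the promoter ones had fewer (33.7% and 39.5%). At lost sites, 59.8% of the promoter and 53.6% of the distal ones had a loss at 3 w.p.i. The libraries of 3 w.p.i. were shallower, with 1.33 to 2.26 mean reads per window against 3.97 to 10.3 at 24 w.p.i., so sites missing there are not shown to be unchanged.

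At Erg, the widest stem cell locus, 5 gained sites of 3 w.p.i. and 0 lost ones lay in the wide site, and the site nearest to Atp1b3 also held 5 gained ones. The wide losses nearest to Cd69 and at Tmem51 held 4 and 3 lost sites of 3 w.p.i. and 0 gained ones. Inside the Padi4 gain of 12100 bp, a short part went the other way at the earlier time. There a site of 1000 bp was listed at 0 for each Daxx-KO library and at 12.9 and 17.7 for WT, which are low counts.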

How the data were processed

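Chromatin of Lin-/c-Kit+ bone marrow cells was profiled by CUT&Tag-direct. Of the 62 samples of the series, those behind 6 tables were used (H3K27ac, Pu.1, H3.3, H3K9me3 and H3K27me3 at 24 w.p.i. and H3K27ac at 3 w.p.i., with 2 libraries per genotype), and 9 tables were not used here. Per the file headers, the authors compared the genotypes with diffReps 1.55.6 on mm10 (negative binomial test, windows of 600 bp moved by 50 bp, window cutoff 0.0001, fragments of 100 bp) and merged the windows that passed into sites. The aligner is not given in the sources used here, and chromosomes X and Y were left out by the authors at 24 w.p.i. The deposited signal is a normalized count per library and site and the mean of each genotype. Columns of the authors' fold changes, p-values and adjusted p-values were not used. Since every listed site had passed that test on the same reads, no test was run across sites, no model was fitted, and depth is given as reads per site recovered from the smallest value of each library.

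Site width was End minus Start plus 1. Direction was the sign of the Daxx-KO mean minus the WT mean. Promoter sites had a start of a GENCODE M21 basic transcript within 1 kb, and other sites were distal. Overlap meant sharing at least 1 bp. GC content, repeat masking and the word GAGGAAGT were read from RefSeq GRCm38.p6. Wilson intervals are at 95%. Tools were pandas 2.3.3, numpy 2.4.6 and scipy 1.17.1 under Python 3.11.15, and the counting steps were tested on made-up intervals with known answers. Replicates were separate mice.

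The wide sites, the 9 gene lists and the motif were chosen with earlier results of these data known. Named sites were the 5 widest per direction, the 5 promoter and 5 distal sites per direction with the largest ratio (libraries apart, higher mean of at least 20), up to 4 genes per list and direction with the widest sites, the 5 genes with the most sites, sites with Pu.1 and H3.3 of the same or opposite direction by width (3 and 2 per direction), 2 sites on each side of the width limit, Daxx and Spi1. Genes whose promoters are printed were chosen after their values were seen. Alternatives were width limits of 2000, 3000 and 4000 bp, other promoter and overlap rules, merging within 1 kb, GC bins, a ratio limit and leaving out each library, and, chosen after seeing the data, scaling by mean reads per window, leaving out repeat-rich sites and the same overlap rules for H3K9me3 and H3K27me3.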

Additional observations from a re-analysis of the deposited data

Results flagged for a closer look

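Some wide sites had the opposite direction at the earlier time point. At 353 of the 1500, a site listed at 3 w.p.i. had every Daxx-KO library below every WT library, whereas the 24 w.p.i. libraries were the other way round. The same crossing was found at 98 of the 1055 lost wide sites, with every Daxx-KO library above every WT library at 3 w.p.i. Of all 103914 sites listed at 3 w.p.i. 41.5% were gains, so a crossing to a loss had more listed sites to meet. In Padi4 the Daxx-KO mean of the short site listed at 3 w.p.i. fell by 15.3 normalized counts from a WT mean of 15.3, while the 12100 bp site around it was gained at 24 w.p.i. They stand here because the genotypes moved in opposite directions at the 2 time points. The difference between time points was not tested, the mice differ, and the 3 w.p.i. site covers only part of each wide site.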

How the results depend on the processing

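Of 140 values recomputed under an alternative for 31 results, 58 stayed within the limits set for each, 80 moved beyond them and 2 changed sides. The lists of overlap shares below leave out lost H3K9me3, gained H3K27me3 and H3K27ac of the opposite direction at 3 w.p.i., which are counted among the 140. A minimum of 2000, 3000 or 4000 bp gave 2879, 885 and 351 gained and 2401, 509 and 161 lost sites. Merging sites within 1 kb gave 5243 gained and 6973 lost, which turned the balance. With a log2 ratio of at least 1 in size there were 582 gained sites, and after scaling by mean reads per window as well 424 lost sites. The promoter share of gained sites was 37.7% with the start inside the site, 51.8% within 3 kb and 35.1% for protein-coding starts. The promoter share of lost sites was 16.2% with the start inside the site, 32.5% within 3 kb and 16.1% for protein-coding starts. When at least 50% of the shorter site had to overlap, the shares of gained wide sites that moved were 29.5% (gained Pu.1), 35.9% (lost Pu.1), 29.8% (gained H3.3), 27.3% (lost H3.3), 21.3% (gained H3K9me3) and 34.5% (H3K27ac gained at 3 w.p.i.). When at least 50% of the shorter site had to overlap, the shares of lost wide sites that moved were 24.1% (gained Pu.1), 30.9% (lost Pu.1), 28.3% (gained H3.3), 22.6% (lost H3.3), 22.6% (lost H3K27me3) and 51.8% (H3K27ac lost at 3 w.p.i.). When a gap of up to 1 kb was allowed, the shares of gained wide sites that moved were 42.2% (gained Pu.1), 47.9% (lost Pu.1), 45.3% (gained H3.3), 40.6% (lost H3.3), 28.3% (gained H3K9me3), 55.6% (lost H3K27me3) and 46.2% (H3K27ac gained at 3 w.p.i.). When a gap of up to 1 kb was allowed, the shares of lost wide sites that moved were 38.5% (gained Pu.1), 43.7% (lost Pu.1), 43.5% (gained H3.3), 36.1% (lost H3.3), 22.2% (gained H3K9me3), 31.8% (lost H3K27me3) and 61.9% (H3K27ac lost at 3 w.p.i.). From 2000 bp, the shares of gained wide sites that moved were 28.2% (gained Pu.1), 34.5% (lost Pu.1), 30.3% (gained H3.3), 25.0% (lost H3.3), 20.2% (gained H3K9me3) and 33.1% (H3K27ac gained at 3 w.p.i.). From 2000 bp, the shares of lost wide sites that moved were 30.2% (lost Pu.1), 29.8% (gained H3.3), 22.9% (lost H3K27me3) and 47.4% (H3K27ac lost at 3 w.p.i.). From 3000 bp, the shares of gained wide sites that moved were 44.3% (lost Pu.1), 39.7% (gained H3.3), 35.1% (lost H3.3), 28.4% (gained H3K9me3), 55.6% (lost H3K27me3) and 43.5% (H3K27ac gained at 3 w.p.i.). From 3000 bp, the shares of lost wide sites that moved were 32.8% (gained Pu.1), 38.7% (lost Pu.1), 39.9% (gained H3.3), 18.3% (gained H3K9me3), 30.6% (lost H3K27me3) and 63.5% (H3K27ac lost at 3 w.p.i.). Per kb, the ratio of overlaps at wide over narrower sites fell to 0.653 for Pu.1, 0.616 for H3.3 and 1.13 for H3K27ac at 3 w.p.i. Wide sites are longer, and counting overlaps of 1 bp raises the number per kb at short sites. Values below 1 thus do not show fewer Pu.1 or H3.3 sites in wide sites. Within GC bins the excess of gains was 14.2 points, and from 3000 bp 3 B-lineage genes had a loss. Leaving out any 1 library is not in this tally: the genotypes' libraries were apart at all but 1 wide site, so the counts stayed at 1500 gained and 1055 lost almost by construction, which says nothing about stability. No paired analysis was possible because the same replicate number names different mice in the genotypes and no model was fitted. Listed sites alone have values, so sites that did not change were not analysed here, and the 3 w.p.i. libraries are the shallowest.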
